A study of Rattus norvegicus with 12 samples.

Results

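Gene expression in brain tissue of Sprague-Dawley rats after cerebral ischemia and reperfusion was compared with that of control rats. The model rats had middle cerebral artery occlusion with reperfusion (MCAO/R) and were restrained without electroacupuncture. The controls were restrained in the same way and likewise received no electroacupuncture, so restraint is common to both groups. The labels name no operation for the controls, although their columns in the deposited table are named as sham. The sources used here give no brain region, side, age, sex or time after reperfusion. The comparison took every column named for the sham or the MCAO group, which was 7 of 11 columns. After near-identical columns were joined these were 5 of 8 samples, called control A, B and C and model A and B. The other 3 samples came from MCAO/R rats that received electroacupuncture. They entered the fit for the gene filter, the scaling and the estimate of the spread, but not the contrast.

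Occlusion of the middle cerebral artery cuts off the blood supply to much of the lateral neocortex and striatum on one side, and the hippocampus is supplied mainly by other arteries. In the core of such a lesion neurons die as glutamate and calcium rise. In the surrounding tissue microglia and blood-borne macrophages clear debris, astrocytes become reactive, and surviving neurons can regrow connections. Calcium acts in neurons largely through calmodulin and the kinases it switches on. One of these, calcium/calmodulin-dependent kinase II (CaMKII), sits at synapses and adjusts their strength.

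The group of 2 model samples came from 4 columns that formed near-identical pairs. Within each pair the median squared difference between counts was 1.34 and 1.4 times the sampling variance, against 14.8 to 15.3 times for the 4 other pairings of model columns and 4.75 to 5.53 times for the 3 pairings of control columns. Each pair was therefore counted as 1 sample and its counts were summed, which leaves n = 2. Total counts were 9335913 to 11359771 in the controls and 17490811 and 18255998 in the model samples. The labels do not state separate animals for the samples, so the p-values reflect only the spread among them, which may be technical. Markers of brain tissue were present in all 5 samples, with Tubb3, a neuronal tubulin, at 350.2 to 557 CPM and S100b, an astrocyte protein, at 1383 to 1943 CPM. The model samples were less alike than any controls. The median gene differed by 0.37 on the log2 scale between model A and B, and 729 genes differed more than 4-fold, whereas pairs of controls differed by 0.20 to 0.23 and in 214 to 289 genes.

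Levels below are CPM (counts scaled to library size, here by TMM), each fold change is the model over the control on the log2 scale with its standard error (SE), and a gene was called at an adjusted p under 0.05. Of 15487 genes tested, edgeR's quasi-likelihood test called 1 (0.00646%), Camk2d. At an unadjusted p under 0.05 it found 1179 genes higher (7.61%) and 960 lower (6.2%), or 13.8% in all. Both model samples lay above every control for 2826 genes (18.2%) and below every control for 3035 (19.6%), together 37.8%. The count of calls depended on the fit. DESeq2 on the same samples called 786 genes (4.91% of the genes it tested, 446 higher and 340 lower), and edgeR called 294 (1.95%; 123 higher, 0.814%, and 171 lower, 1.13%) when only the control and model samples were fitted. Without electroacupuncture A it called 565 (3.7%), without model A 356, and 0 without any 1 of control A, B and C, model B and electroacupuncture B. Because of this spread, each gene below other than Camk2d is given by its values, and calls by DESeq2 are stated as such.

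Camk2d encodes the delta chain of CaMKII. It measured 15.1, 16.6 and 19.5 CPM in the 3 controls and 133 and 154 CPM in the model samples A and B. Both model samples stood far above all controls. Camk2d rose 8.39-fold in the model, from 17.1 ± 2.23 CPM (SD, n = 3) to 143 ± 15.2 CPM (SD, n = 2), with a log2 fold change of 3.07 (SE 0.23, adjusted p = 0.0263, edgeR quasi-likelihood test). The rats that received electroacupuncture after the same operation had 34.5, 28.0 and 20.5 CPM. In 16 alternative fits the log2 fold change lay between 2.95 and 3.18. The call was lost in 6 of them, those that left out 1 of the 3 controls, model B or electroacupuncture B, and the one scaled by total counts (adjusted p = 0.0750 to 0.358).

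The other members of the calmodulin kinase list did not share a direction. Of its 17 tested genes, 5 had both model samples above every control (18.2% of all genes) and 6 below (19.6%), and the median log2 fold change was 0.05, or -0.47 without model B and 0.45 without model A, against 0.02 for all genes tested. Camk2b, the beta chain that anchors CaMKII to actin in dendritic spines, measured 1515, 1360.0 and 1231 CPM in the controls and 465 and 705 CPM in the model samples. Those groups did not overlap (log2 fold change -1.23, SE 0.33, edgeR adjusted p = 0.188), and DESeq2 called the difference (adjusted p = 0.00897). For Camk2a, the alpha chain of forebrain excitatory neurons, model A at 101 CPM was below and model B at 183 CPM above the control range of 129 to 164 CPM. Camk2g, the gamma chain, gave 104 and 200.5 CPM against 92.6 to 115 CPM. Of the 4 chains, the main test called only the delta chain.

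Camk1, a kinase linked to axon and dendrite growth, had 47.7, 46.6 and 57.0 CPM in the controls and 76.2 and 92.8 CPM in the model samples (log2 fold change 0.74, SE 0.17, edgeR adjusted p = 0.170; DESeq2 adjusted p = 0.013). Camk4, a nuclear kinase that acts on CREB, split the model samples, at 40.3 CPM (model A) and 242 CPM (model B) against controls between 91.4 and 203 CPM. Calm3, a gene for calmodulin, was listed at 284 CPM in model A but 0.164 CPM in model B, against 367 to 418 CPM in the controls.

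**Figure D1:**
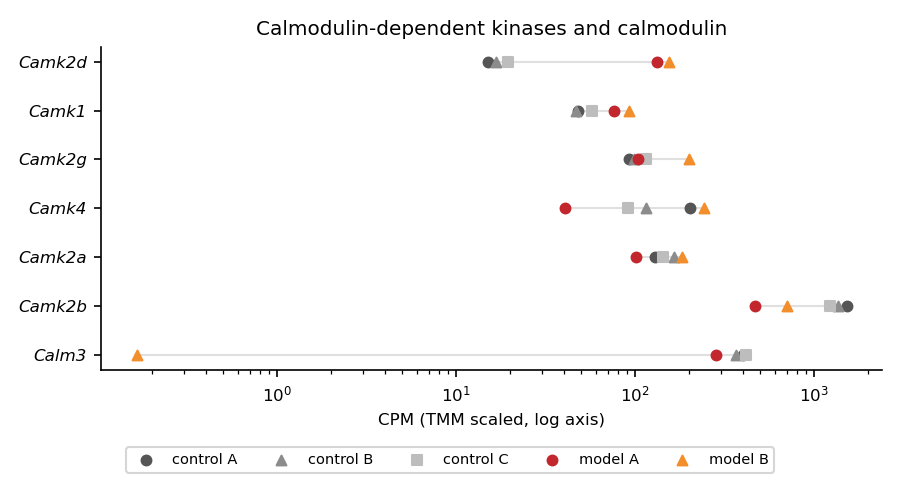
Levels of the calmodulin kinases and the calmodulin gene described in the text in each sample, in CPM on a log axis and ordered by log2 fold change. Camk2d is at 133 and 154 CPM in the model samples and at 15.1 to 19.5 CPM in the controls, Camk2b lies lower in both model samples, and Calm3 is close to 0 in model B alone.

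Beside Camk2d, 11 genes higher and 12 lower in the model had the smallest p-values among genes that averaged 5 CPM or more in the higher group and did not overlap between the groups. None was called by the main test (edgeR adjusted p = 0.0678 to 0.108), and DESeq2 called all 23, as did edgeR on the control and model samples alone. Hpcal1, a neuronal calcium sensor, measured 26.2, 26.6 and 32.3 CPM in the controls and 84.4 and 102 CPM in the model samples (log2 fold change 1.72, SE 0.18, edgeR adjusted p = 0.0678). Dpp10, an auxiliary subunit of Kv4 potassium channels, measured 15.1, 17.2 and 21.3 CPM against 79.3 and 126 CPM (2.52, SE 0.27, edgeR adjusted p = 0.0678). For both genes the lower model sample was well above the highest control.

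Fhod3, a formin that assembles actin filaments, was at 4.49, 5.57 and 5.86 CPM in the controls, and at 28.5 (A) and 65.0 CPM (B) in the model. Model B held more than model A for this gene, as for Dpp10. Gfra2, the co-receptor for the neurotrophic factor neurturin, measured 4.76 to 5.80 CPM in the controls and 29.4 and 40.2 CPM in the model. Igsf21, a synaptic adhesion protein, was nearly equal in the model samples, at 67.9 and 68.5 CPM, against 16.5 to 22 CPM. Grip2, a scaffold that binds AMPA receptors, was also even, at 31.3 and 32.5 CPM against 11.3 to 13.0 CPM. None of these genes overlapped between the groups.

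Sox5, a transcription factor of deep-layer cortical neurons, measured 13.6, 14.1 and 13.6 CPM in the controls and 30.0 and 39.9 CPM in the model. Its controls were almost identical. Sst, the somatostatin peptide of a class of cortical interneurons, measured 255 and 299 CPM in the model against 90.8 to 123 CPM. The remaining higher genes were Usp35, a deubiquitinase (2.58-fold), Cxxc4, an inhibitor of Wnt signalling (2.24-fold), and Bmper, a secreted protein that binds bone morphogenetic proteins (8.67-fold). Bmper rests on few reads in the controls, at 9, 8 and 11 counts.

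Of the 12 lower genes, C1ql2, Timd4 and Epha8 had the widest gaps, with control means 196-, 51.0- and 36.0-fold above the model means. C1ql2, a secreted protein that organises synapses of dentate granule cell axons in the hippocampus, measured 53.3, 32.1 and 57.3 CPM in the controls and 0.375 and 0.109 CPM in the model samples, which is 7 and 2 counts. Epha8, a receptor for ephrins that guides axons, measured 233, 337 and 172 CPM against 7.66 and 6.08 CPM (log2 fold change -5.17, SE 0.71, edgeR adjusted p = 0.0920). For both genes every control was many times above both model samples. Among the rats with electroacupuncture, sample A was also the lowest for both genes, at 5.81 CPM for C1ql2 and 72.8 CPM for Epha8, against 32.9 to 55.5 CPM and 104 to 282 CPM in samples B and C.

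Timd4, a phosphatidylserine receptor through which macrophages take up dying cells, was at 11.4, 5.57 and 3.76 CPM in the controls and at 0.161 and 0.109 CPM (3 and 2 counts) in the model samples. Sec14l5 had the smallest p of the lower genes, at 22.5, 20.5 and 19.4 CPM against 4.77 and 4.0 CPM (log2 fold change -2.24, SE 0.23, edgeR adjusted p = 0.0678). Pou3f1, a POU-domain transcription factor that is also on the hippocampal list, was at 109.5, 131 and 92.5 CPM against 19.6 and 32.3 CPM. Cttnbp2, a cortactin-binding protein of dendritic spines, was at 331, 281 and 302 CPM against 98.4 and 138 CPM. In none of them did the groups overlap.

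The rest of the lower genes were 2.69- to 6.28-fold higher in the mean of the controls. Vav3, an exchange factor that activates small GTPases, measured 26 to 31.4 CPM in the controls and 5.89 and 3.18 CPM in the model. Fkbp9, a prolyl isomerase of the endoplasmic reticulum, measured 50.0 to 57.3 CPM against 17.3 and 11.8 CPM. The others were Adamts3, a proteinase that matures procollagen (log2 fold change -1.59), Gpr12, an orphan receptor of neurons (-1.59), Dph1, an enzyme that modifies elongation factor 2 (-1.42), and Gpr155, a lysosomal cholesterol sensor (-1.74).

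**Figure D2:**
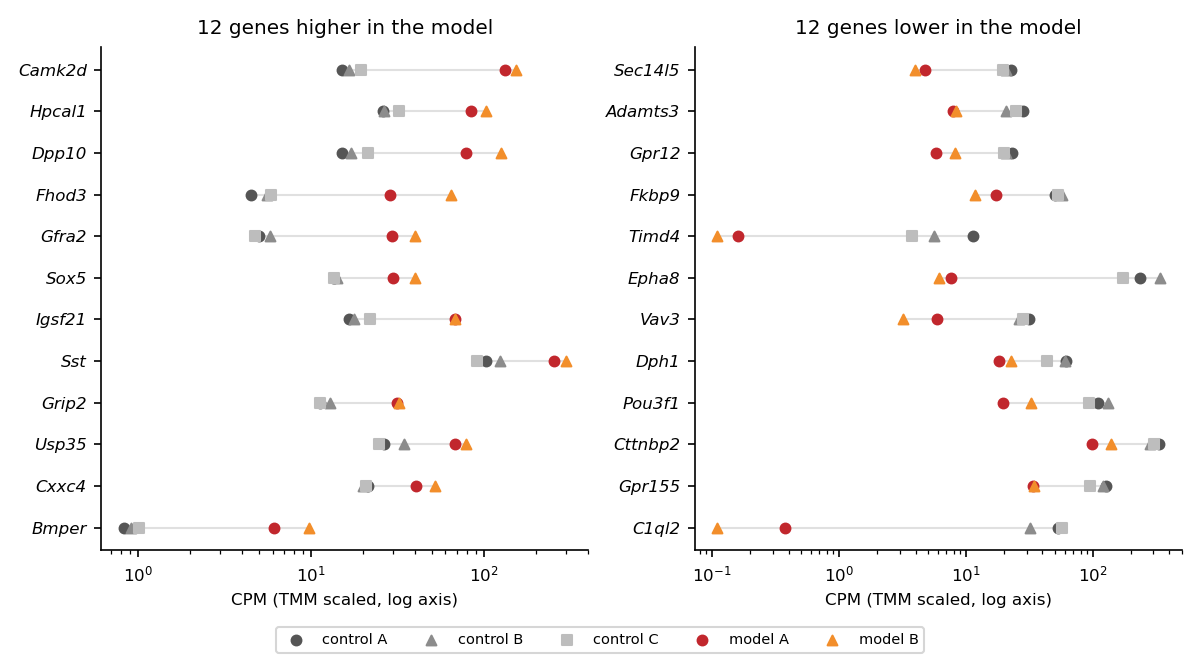
Levels in each sample, in CPM on a log axis, of the 12 genes higher (left, Camk2d included) and the 12 genes lower (right) in the model with the smallest p-values. Control and model samples do not overlap for any gene shown, which the choice of genes required, and the widest gaps are those of C1ql2, Epha8 and Timd4.

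Markers of brain regions differed along with the groups, and these values stand beside every gene group that follows. Of 15 tested hippocampal markers, 11 had both model samples below every control (against 19.6% of all genes) and 1 above (against 18.2%). The median member lay at -1.34 (model A) and -1.76 (model B), as log2 CPM minus the control mean, against -0.11 to 0.03 in the controls. Prox1, the transcription factor of dentate granule neurons, measured 96.0, 70.8 and 62.7 CPM in the controls and 6.38 and 3.83 CPM in the model samples. Nr3c2, the mineralocorticoid receptor, measured 171, 106 and 97.8 CPM against 22 and 22.3 CPM (log2 fold change -2.49, SE 0.62, edgeR adjusted p = 0.181). DESeq2 called 6 of the 15 lower and 0 higher, where it called 2.12% of all genes lower. Electroacupuncture A lay low for this list too, at -1.21.

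Of 16 neocortical markers, 9 lay above every control in both model samples and 4 below, against 18.2% and 19.6% of all genes, so that the count below is near that of genes at large. Cux2, a transcription factor of upper-layer neurons, measured 20.3, 19.6 and 18.1 CPM in the controls and 74.0 and 229 CPM in the model. Mef2c, a transcription factor of cortical neurons, measured 144, 131 and 101 CPM against 279.6 and 677 CPM. Model B was well above model A for both genes. DESeq2 called 5 of these markers higher (against 2.79% of all genes) and 1 lower (against 2.12%). The median member lay at 0.61 (model A) and 1.11 (model B). The lower markers were Bcl11b, Rasgrf2, Nr4a2 and Ntng2.

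Markers of the striatum lay highest in model A, with the median member at 2.57, against 0.50 in model B and -0.02 to 0.07 in the controls. Of 14 tested, 10 were above every control in both model samples (18.2% of all genes were) and 0 below. Penk, the enkephalin precursor of striatal projection neurons, measured 29.8, 30.1 and 34.0 CPM in the controls and 168 and 102 CPM in the model. Ppp1r1b, the dopamine-regulated phosphatase inhibitor DARPP-32, measured 97.0, 94.2 and 97.5 CPM against 218 and 125 CPM. In electroacupuncture A the same genes reached 1250.3 and 2067 CPM. No striatal marker had an unadjusted p under 0.05 in the main edgeR fit. DESeq2 called 0, but it gave no adjusted p for Penk and Ppp1r1b. On the control and model samples alone, edgeR called 1 of the 14, Penk (adjusted p = 0.0255). Six3, a transcription factor of the forebrain on the hypothalamic list, was at 0.367 to 0.568 CPM in the controls and reached 20.2 and 50.7 CPM in the model samples. In bulk tissue, fewer cells of a type and less RNA per cell cannot be told apart, and the sources used here do not say which tissue was dissected for each sample. The part of these regional values in the other differences was not tested.

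**Figure D3:**
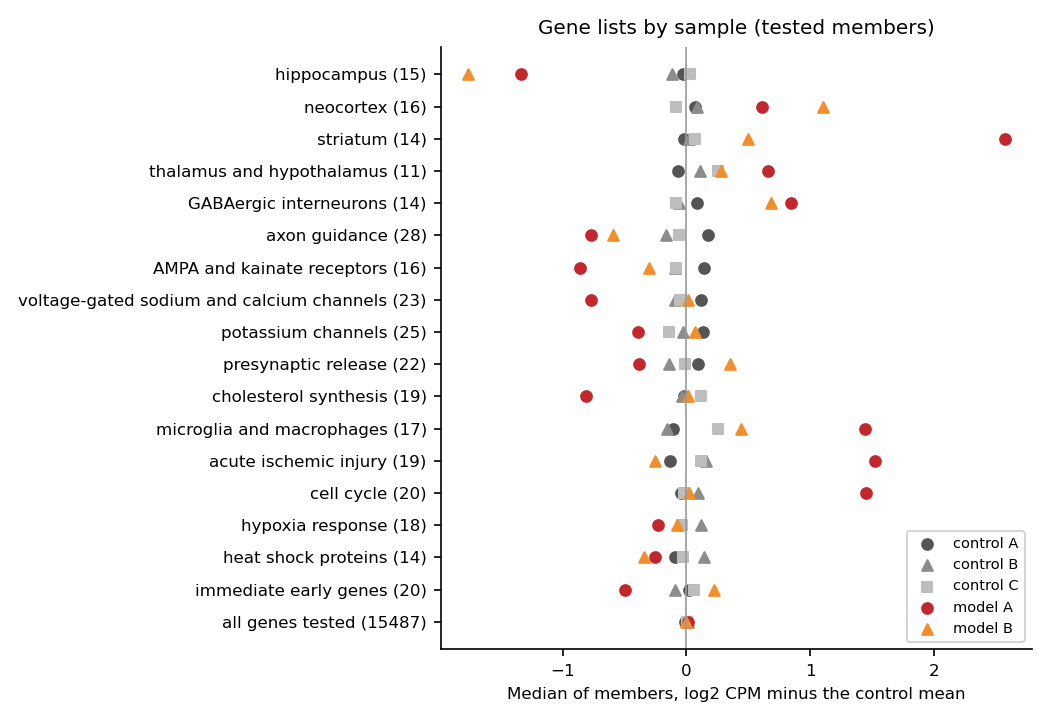
Median over the tested members of each gene list, as log2 CPM minus the mean of the controls, for each control and model sample, with the number of tested members in brackets. Hippocampal and axon guidance genes are lower in both model samples, striatal, injury and cell cycle genes are far higher in model A than in model B, and all genes tested centre on 0.

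Axon guidance genes, the largest list with 28 tested members, had 15 below every control (against 19.6% of all genes) and 2 above (against 18.2%). The 15 of 28 are a smaller share than the 11 of 15 hippocampal markers. The median log2 fold change of the axon guidance list was -0.69, with -0.77 for model A and -0.60 for model B. DESeq2 called 6 lower (against 2.12% of all genes) and 2 higher (against 2.79%). The lower members included receptors for semaphorins (Plxna4, Nrp1 and Nrp2), netrins (Dcc, Unc5a and Unc5d) and ephrins (Epha5 and Epha7). The rest of the 15 are not named here and were not all receptors. Dcc, the netrin receptor that draws axons to the midline, measured 26.7, 21.7 and 25.7 CPM in the controls and 9.81 and 10.3 CPM in the model samples (log2 fold change -1.29, SE 0.22, edgeR adjusted p = 0.108). The model samples were nearly equal, and both were far below the lowest control.

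The 2 members above the controls were Sema3a and Efna5. Sema3a, a secreted semaphorin that repels growing axons, measured 2.47, 2.73 and 1.92 CPM in the controls and 10.7 and 31.3 CPM in the model (3.14, SE 0.54, edgeR adjusted p = 0.108). Efna5, a membrane-bound ephrin, measured 3.02, 1.82 and 1.83 CPM against 17.7 and 22 CPM (3.15, SE 0.66, edgeR adjusted p = 0.143). Named after their values were seen, the semaphorin co-receptor Nrp1 measured 44.2 to 57.2 CPM in the controls and 14.8 and 12.6 CPM in the model, and the ephrin receptor Epha7 214 to 295 CPM and 48.6 and 81.4 CPM. Both receptors lay below every control. Robo1 and Robo2, receptors for Slit, overlapped between the groups.

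AMPA-type and kainate glutamate receptors, which carry fast excitation, and their auxiliary subunits had 8 of 16 members below every control (19.6% of all genes) and 2 above (18.2%; median log2 fold change -0.53, model A -0.86, model B -0.30). Gria1, the AMPA subunit added to synapses during potentiation, measured 63.5, 54.1 and 54.0 CPM in the controls and 23.4 and 18.7 CPM in the model. Cnih2, which assists AMPA receptor export and slows channel closing, measured 1219, 1133 and 996 CPM against 424 and 419 CPM (log2 fold change -1.4, SE 0.37, edgeR adjusted p = 0.187). Cacng8, another auxiliary subunit, measured 98.8, 85.5 and 100.1 CPM against 21.2 and 34.6 CPM. DESeq2 called these 3 lower and no other member, where it called 2.12% of all genes lower. All 3 were also low in electroacupuncture A, at 29.9, 409 and 28.8 CPM, as the hippocampal list was.

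Homer3, a scaffold of postsynaptic receptors that is also on the hippocampal list, measured 107, 113 and 123 CPM in the controls and 45.1 and 29.1 CPM in the model samples. Its list of postsynaptic scaffold and adhesion genes had 4 of 22 members below every control and 1 above, no more than the 19.6% and 18.2% of all genes. Metabotropic and NMDA receptors had 4 of 14 members above and 2 below, which is also near those shares. Grin2d, an NMDA receptor subunit, measured 28.5 and 31.6 CPM in the model samples against 16.1 to 22.1 CPM in the controls. For Grin2a, a subunit of adult NMDA receptors, the controls had 9.44 to 15.7 CPM and the model samples 2.41 and 0.274 CPM. Of 13 GABA-A receptor subunits, 5 lay below (against 19.6% of all genes) and 1 above (against 18.2%). The one above was Gabra3, at 14.5 and 23.0 CPM against 5.00 to 7.05 CPM. Gabra5, a subunit of extrasynaptic receptors abundant in the hippocampus, measured 298, 206 and 239 CPM in the controls and 47.7 and 84.9 CPM in the model.

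Among 23 sodium and calcium channel genes 7 lay below and 4 above, and among 25 potassium channel genes 8 below and 2 above. Over all genes these shares are 19.6% below and 18.2% above, so the sodium and calcium channels above are at the level of genes at large. Cacna1h, a low-voltage-activated T-type calcium channel, measured 335, 385 and 231 CPM in the controls and 52.7 and 94.3 CPM in the model samples (log2 fold change -2.11, SE 0.48, edgeR adjusted p = 0.169). Scn3b, an auxiliary sodium channel subunit, measured 948, 745 and 662 CPM against 193 and 249.7 CPM. Kcnt1, a sodium-activated potassium channel, lay the other way, at 25.0, 31.6 and 36.1 CPM in the controls and 172 and 246 CPM in the model. It was as high in electroacupuncture A, at 234 CPM, and at 55.6 and 34.0 CPM in electroacupuncture B and C. Kcnab1 and Kcnd2, which take part in A-type potassium currents, lay lower in the model by 1.41 and 1.01 on the log2 scale, while Dpp10, which assists Kv4 channels such as Kcnd2, lay higher.

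Pumps and exchangers, which restore ion gradients after ischemia, had 4 of 16 members below every control and 2 above, near the 19.6% and 18.2% of all genes. Atp2b4, a pump that expels calcium through the plasma membrane, measured 12.5, 12.2 and 28.8 CPM in the controls and 168 and 209 CPM in the model. Its log2 fold change was 3.40 (SE 0.50, edgeR adjusted p = 0.0922), larger than that of Camk2d but with a wider spread among the controls. Slc8a3, a sodium-calcium exchanger, was the second member above, at 32.2 and 21.5 CPM against 10.4 to 15.9 CPM.

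Genes used to mark ischemic injury lay high in model A and near the controls in model B. Of 19 tested, 16 were above every control for model A, where 36.4% of all genes were, and 4 for model B, where 32.6% were. The median member lay at 1.53 (model A) and -0.25 (model B) against -0.13 to 0.16 in the controls, so that model A was above and model B below them. Spp1, the macrophage-secreted protein osteopontin, measured 0.550, 1.02 and 0.733 CPM in the controls, 32.5 CPM (model A) and 0.219 CPM (model B). Msr1, a scavenger receptor, measured 3.21, 4.32 and 3.11 CPM against 11.1 and 4.11 CPM. Neither gene was above the controls in both model samples.

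Of 4 textbook injury genes, named after their values were seen, Gfap, Vim and Lgals3 split in the same way. Gfap, the filament of reactive astrocytes, measured 1364, 1949.9 and 992 CPM in the controls, 2259 CPM (model A) and 502 CPM (model B). Vim, an intermediate filament of reactive glia, measured 56.7 to 90.7 CPM in the controls, 242 CPM (model A) and 65.6 CPM (model B). Lgals3, a lectin of activated phagocytes, measured 1.48 to 3.48 CPM in the controls and 18.9 and 2.30 CPM in model A and B. Hspa1a, the inducible heat shock protein 70, was above the controls in neither, at 5.79 CPM (model A) and 1.42 CPM (model B) against 4.86 to 8.18 CPM. Of the 19 injury genes, 4 lay above every control in both model samples and 1 below, against 18.2% and 19.6% of all genes. Hmox1 was 1 of those above, at 19.3 and 8.87 CPM against 6.50 to 7.96 CPM. Of 21 reactive astrocyte genes, 5 lay above in both and 1 below. The one below was Serpina3n, at 0.214 and 0 CPM against 5.77 to 12.6 CPM (DESeq2 adjusted p = 2.43e-05). The median log2 fold change of the injury list, 0.86 with both samples, was -0.33 without model A.

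Cell cycle genes showed the same contrast between the model samples, with 17 of 20 above every control for model A (36.4% of all genes) and 4 for model B (32.6%), and 3 in both (18.2%). The median member lay at 1.45 (model A) and 0.02 (model B), and the median log2 fold change of 0.81 was -0.02 without model A. Mki67, a protein of dividing cells named after its values were seen, measured 4.77, 6.37 and 5.31 CPM in the controls, 17.4 CPM (model A) and 2.57 CPM (model B). Aurkb, a mitotic kinase also named after its values were seen, measured 2.47 to 3.57 CPM, 21.3 CPM and 0.219 CPM. No cell cycle gene had an unadjusted p under 0.05 in edgeR, and DESeq2 called 0. Microglial and macrophage markers lay higher in both model samples, with the median member at 1.44 (model A) and 0.44 (model B) against -0.16 to 0.26 in the controls. Of 17 tested, all 17 were above every control for model A and 11 for model B, and those 11 lay above in both, against 18.2% of all genes. Only 2 had an unadjusted p under 0.05 in the main edgeR fit, and DESeq2 called 0. On the control and model samples alone, edgeR called 1 of the 17 higher, against 0.814% of all genes. It was Tmem119, at 22.9 and 21.7 CPM in the model against 7.42 to 9.78 CPM (adjusted p = 0.0331 in that edgeR fit).

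**Figure D4:**
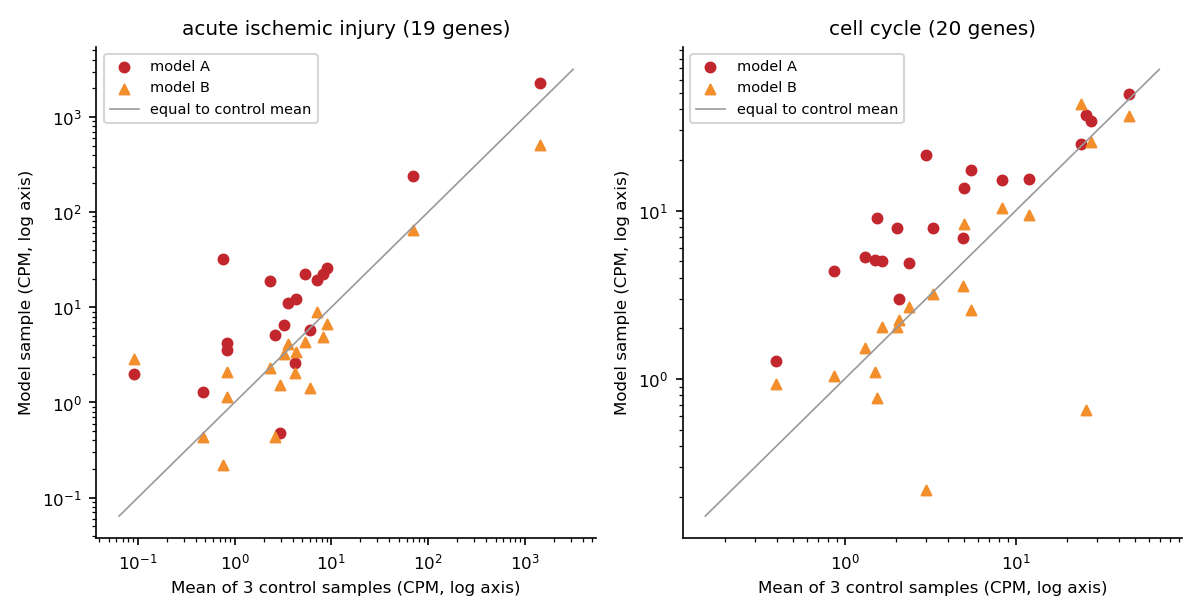
Level in model A and model B against the mean of the 3 controls for 19 injury genes (left) and 20 cell cycle genes (right), in CPM on log axes, with a line where the model sample equals the control mean. Most points of model A are above the line, and points of model B scatter on both sides of it.

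Of 18 genes of the hypoxia response, 3 lay above and 4 below every control in both model samples, near the 18.2% and 19.6% of all genes (median log2 fold change -0.14, or 0.0012 without control B). Vegfa, the main vascular growth factor, overlapped between the groups, with 48.3 and 98.0 CPM in the model and 53.1 to 65.3 CPM in the controls. Egln3, an oxygen sensor induced by HIF, measured 11.6, 10.7 and 13.0 CPM in the controls and 23.6 and 21.1 CPM in the model. P4ha1, a collagen prolyl hydroxylase, measured 85.0, 103 and 88.3 CPM against 59.7 and 49.8 CPM. DESeq2 called Egln3 higher and P4ha1 lower and no other gene of this list, where it called 2.79% of all genes higher and 2.12% lower.

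Heat shock genes had 6 of 14 members below every control (19.6% of all genes) and 1 above (18.2%; median log2 fold change -0.25). Hsph1, a nucleotide exchange factor for Hsp70, measured 236, 235 and 227 CPM in the controls and 147 and 154 CPM in the model (-0.63, SE 0.14, edgeR adjusted p = 0.156; DESeq2 adjusted p = 7.74e-05). Its spread was small in both groups. It was the one gene of the list that DESeq2 called, where DESeq2 called 2.12% of all genes lower. Hspd1 and Dnaja1, other chaperones, lay lower by 0.43 and 0.51 on the log2 scale.

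Immediate early genes, which neurons switch on with activity, had 9 of 20 members below every control (against 19.6% of all genes) and 5 above (against 18.2%). Arc, which promotes removal of AMPA receptors from synapses, measured 130.1, 156 and 114 CPM in the controls and 48.7 and 52.0 CPM in the model samples (log2 fold change -1.4, SE 0.29, edgeR adjusted p = 0.139). Nr4a3, a nuclear receptor, measured 48.7, 28.5 and 51.5 CPM against 12.8 and 11 CPM. Dusp1, a phosphatase that shuts off MAP kinases, was higher, at 20.2 and 65.5 CPM against 11 to 16.7 CPM. DESeq2 called these 3 genes, where it called 2.12% of all genes lower and 2.79% higher. Fos, the best-known member, named after its values were seen, measured 10.9 and 7.61 CPM against 4.58 to 6.32 CPM, and Bdnf, the neurotrophin, 7.39 and 20.1 CPM against 31.4 to 64.4 CPM.

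Genes of cholesterol synthesis and of transmitter release differed between the model samples. Of 19 cholesterol synthesis genes, 17 lay below every control for model A (35.6% of all genes) and 4 for model B (33.4%). Among 22 genes of presynaptic release 15 lay below the controls in model A (35.6% of all genes) and 17 above them in model B (32.6%). Stx1a, a plasma membrane protein of vesicle fusion, was above in both, at 138 and 434 CPM against 56.7 to 95.6 CPM. Of 20 proteasome subunits, 9 lay below in both (19.6% of all genes) and 1 above, with a median log2 fold change of -0.10 (0.0072 with total counts). Interneuron markers had 9 of 14 members above in both (18.2% of all genes) and 0 below, among them Lhx6, a transcription factor of their lineage, at 15.9 and 20.1 CPM against 8.75 to 9.62 CPM. Red cell genes summed to 1767 CPM (model A) and 7973 CPM (model B), and to 8529, 3262 and 5940.2 CPM in the controls, with no order by group. Choroid plexus and ependymal genes summed to 1401 CPM in control C and 18.3 to 114 CPM in the other 4 samples.

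Some genes appeared switched on or off between samples of one group. Between the 2 model samples 67 genes (0.433% of those tested) stood below 1 CPM in one and at 20 CPM or more in the other. Among the 3 controls 46 genes (0.297%) spanned that range, although 3 samples give more pairs in which a gene can span it. Pea15, an adaptor protein abundant in astrocytes, was listed at 849 CPM (model A) and 0.274 CPM (model B), against 552 to 742 CPM in the controls. Mt3, the brain metallothionein, was listed at 803 and 0.493 CPM against 541 to 692 CPM. Thrap3, a splicing-related protein, was at 109 CPM in model A and listed at 0 in model B, against 125 to 126 CPM. In these 3 genes model A resembled the controls and model B alone was near 0.

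The reverse was seen for Prss8, a membrane-anchored serine protease, with 291 CPM in model B against 1.02 CPM in model A and 0.733 to 1.25 CPM in the controls. Cops4, a subunit of the COP9 signalosome, was listed at 84.6, 0 and 0 CPM in the controls A to C and at 0 and 102 CPM in the model samples. Cacnb3, a calcium channel subunit, gave 233, 5.00 and 5.13 CPM and 5.47 and 366 CPM in the same order. For both genes, control A resembled model B, and control B and C resembled model A. Whether such values near 0 reflect expression or the counting was not tested. No gene was at 0 in both model samples with 5 CPM or more in every control, nor the reverse.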

How the data were processed

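Per the labels' protocols, poly(A)-selected RNA was sequenced from strand-marked libraries whose adapters carried unique molecular identifiers. The authors deposited 1 table of expected counts (estimated, partly fractional read counts per gene), which were rounded here. The tools named by the submitters' processing notes, with no roles, are DESeq2 1.16.1, featureCounts 1.5.0-p3, HISAT2 2.0.5 and StringTie 1.3.3b. The sources used here give neither the genome build nor any use of the identifiers to remove duplicates. The 3 columns named as sham, for 4 labelled controls, were taken as the controls. Of 11 columns, those of 1 group that differed by less than 2 times the sampling variance (median squared difference, genes with at least 20 counts in the pair) were joined. The 4 symbols on 2 rows each were summed.

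Genes were tested in edgeR 4.0.16 under R 4.3.3 (two-sided quasi-likelihood F test with TMM scaling, the default filter by group and Benjamini-Hochberg adjustment). All 8 samples entered 1 fit with 5 residual degrees of freedom, and the biological coefficient of variation was 36.8%. The joining of near-identical columns was planned with those pairs already known from an earlier look at these data. DESeq2 1.42.0 was the alternative tool. The scripts were tested on simulated counts.

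The comparison and its gene lists were chosen with earlier results of these data known. By rule, the text names each called gene, the 12 higher and 12 lower genes with the smallest p (mean of at least 5 CPM in the higher group, no overlap, no numbered locus), up to 3 genes per list by smallest p, and the 6 genes per direction that differ most between the model samples, from which some are given. Some genes that the rule names are not reported here. Camk2a, Camk2g, Camk4, Bcl11b, Rasgrf2, Nr4a2, Ntng2, Plxna4, Nrp2, Unc5a, Unc5d, Epha5, Robo1, Robo2, Vegfa and Bdnf were named after their values were seen. Alternatives were other scalings and filters, fits without the third group, of 11 separate columns and with a replicate block, and leaving out each sample.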

Additional observations from a re-analysis of the deposited data

Results flagged for a closer look

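The striatal marker list was picked out because a sample outside the comparison, electroacupuncture A, lay above every control and model sample by at least 2 on the log2 scale. Its median member stood at 5.04 above the control mean, against 2.57 for model A and 0.50 for model B. This sample took part in the estimate of the spread, and without it the number of genes called between model and control was 565 in place of 1.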

How the results depend on the processing

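Of the genes called between model and control, 1 in the main test, DESeq2 gave 786, control and model samples alone 294, total counts 0, 11 columns as separate libraries 1129, and leaving out 1 sample 0 to 565. Deviations of same-numbered control and model columns had correlations of -0.16, 0.17 and -0.02. Model columns 1 and 2 are near-identical, so these values cannot show whether the column numbers pair the samples. A fit of 11 columns with the replicate block called 471. Leaving out 1 control or model sample gave 3329 to 5632 genes above every control (2826 with all), 3601 to 5506 below (3035) and 7088 to 11138 outside the range (5861), which fewer samples allow by construction. Total counts moved the median log2 fold change of all genes from 0.02 to 0.13 and the counts above and below to 3887 and 2063. The medians of 31 of 50 lists changed sign in at least 1 fit, 22 of them without model A, 7 without model B and 6 under another scaling. Log2 fold changes without 1 sample ran from -3.72 to 2.82 for Aurkb, -3.89 to 5.19 for Cacnb3, -0.53 to 0.33 for Camk2a, -1.77 to 0.82 for Camk4, -11.57 to 12.53 for Cops4, -1.52 to 0.65 for Gfap, -0.026 to 3.01 for Lgals3, -1.09 to 1.66 for Mki67, -10.25 to 0.39 for Mt3, -11.19 to 0.36 for Pea15, -0.55 to 0.54 for Robo2, -1.76 to 5.39 for Spp1, -0.29 to 0.73 for Vegfa and -0.10 to 1.78 for Vim, so none has a stable direction. With the replicate block Camk4 was at -0.33 and Robo2 at -0.027, and with total counts Camk2a was at 0.071 and Gfap at 0.086. The cause of these changes was not tested. Genes near 1 CPM rest on few reads, such as Bmper with 8 to 11 counts in each control.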

Other observations

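Matrix and protease genes, not described above, had 5 of 24 members above every control in both model samples, near the 18.2% of all genes, and 8 below, against 19.6%. Postn, periostin, a matrix protein of repair tissue, measured 0.917, 1.36 and 2.02 CPM in the controls and 4.13 and 7.39 CPM in the model. Bcan and Acan, the proteoglycans brevican and aggrecan of perineuronal nets, lay below, Bcan at 106 and 113 CPM against 145 to 185 CPM and Acan at 1.07 and 1.59 CPM against 2.38 to 4.89 CPM. DESeq2 called Postn (adjusted p = 0.0168) and Bcan (adjusted p = 0.035), and edgeR called none of the 3 (adjusted p = 0.175 to 0.230).

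Of 17 clock genes, 4 lay above every control, near the 18.2% of all genes, and 0 below. Rorb, a nuclear receptor that is also a marker of middle-layer cortex in the neocortical list, measured 22.9, 26.3 and 18.7 CPM in the controls and 36.1 and 45.9 CPM in the model. Npas2, a partner of BMAL1, measured 28.0 to 31.7 CPM against 46.7 and 86.3 CPM, and 89.9 CPM in electroacupuncture A.

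Of 22 interferon-stimulated genes, 14 lay above every control in both model samples (18.2% of all genes did) and 0 below. DESeq2 called 4 of them higher, where it called 2.79% of all genes higher. A few immune genes had values unlike those of their lists. Cd3e, a chain of the T cell receptor complex, was listed at 29.4, 21.1 and 8.15 CPM in the controls and at 0.0536 and 0.219 CPM (1 and 4 counts) in the model samples. Cd55, which dissociates complement convertases, measured 6.69, 4.89 and 4.12 CPM against 1.29 and 1.04 CPM. Oas2, an interferon-induced synthetase, was at 0.183 to 0.275 CPM in the controls, 1.02 CPM (model A) and 22.8 CPM (model B), while the median of the interferon list was higher in model A (1.38) than in model B (0.44). The cause of these values was not tested.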
